A study of Mus musculus with 6 samples.

Results

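Described here are 10 mouse genes of the 21878 in the deposited expression table. They are the chemokine ligand genes Cxcl1, Cxcl2, Cxcl5, Cxcl12, Cxcl16, Ccl2 and Ccl7, the macrophage growth factor gene Csf1 with its receptor gene Csf1r, and Lcn2, which encodes lipocalin 2. Each was found by its gene name in the table, and all 10 had a row. The cells were NIH3T3, an immortalised mouse embryo fibroblast line, recorded as radiation-injured in both groups. One group received exosomes (3 libraries) and the other phosphate-buffered saline, PBS (3 libraries), each at 72 h. The series title names plasma as the source of the exosomes, which are small vesicles that cells release, and places the work in the healing of irradiated wounds through proliferation and ferroptosis. The labels give no radiation dose, no plasma species and do not say whether each library had a culture of its own. The p-values below therefore cover the variation among the 6 libraries and no more, and it may be purely technical. Cells without irradiation were not analysed here. NIH3T3 is 1 cell line, so the values describe what these fibroblasts transcribed and not the cells that chemokines recruit.

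Chemokines are small secreted proteins that draw leukocytes along a concentration gradient by binding G protein-coupled receptors. In injured tissue, fibroblasts are among the cells that release them. Ligands with a glutamate-leucine-arginine motif next to their CXC cysteines, such as those encoded by Cxcl1, Cxcl2 and Cxcl5, mainly attract neutrophils through CXCR2. The CC ligands encoded by Ccl2 and Ccl7 attract monocytes through CCR2, and CXCL12 retains and guides cells that carry CXCR4. CSF1 is the main survival factor of macrophages, and lipocalin 2 binds the iron carriers of bacteria. Transcription of several of these genes is induced by NF-kB, a factor that inflammatory signals activate.

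The start regions of 4 of the genes are shown because the data bear on them in different ways. Cxcl1 and Cxcl2 are direct neighbours with very unlike levels, Csf1 was lower with exosomes and Cxcl12 was higher. Each window runs from 250 bases before to 50 bases after the start that RefSeq annotates, on the gene's own strand, in build GRCm38.p6. The deposited table was made on mm9, so these positions do not belong to its build. Windows of 5 of the 10 genes were searched, the fifth being Lcn2. No window was available for Ccl2, Ccl7, Cxcl5 and Cxcl16, and Csf1r was left out of this search. Ccl2, Ccl7 and Cxcl5, which were also lower with exosomes, were therefore not searched. Capitals mark matches, on either strand, to the NF-kB motif: GGG, then any 3 bases, then TTCC.
Cxcl1 (chr5:90890995-90891294, plus strand): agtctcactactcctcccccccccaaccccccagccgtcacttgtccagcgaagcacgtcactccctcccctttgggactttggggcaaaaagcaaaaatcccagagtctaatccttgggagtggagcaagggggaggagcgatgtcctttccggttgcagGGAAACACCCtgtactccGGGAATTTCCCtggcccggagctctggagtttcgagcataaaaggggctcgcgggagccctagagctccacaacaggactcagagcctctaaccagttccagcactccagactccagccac
Cxcl2 (chr5:90903649-90903948, plus strand): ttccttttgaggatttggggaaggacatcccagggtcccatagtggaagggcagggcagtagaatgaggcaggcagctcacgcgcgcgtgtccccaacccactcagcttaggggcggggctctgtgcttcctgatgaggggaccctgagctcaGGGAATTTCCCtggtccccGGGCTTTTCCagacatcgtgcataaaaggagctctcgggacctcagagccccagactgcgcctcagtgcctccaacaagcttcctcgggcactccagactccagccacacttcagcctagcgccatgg
Csf1 (chr3:107760420-107760719, minus strand): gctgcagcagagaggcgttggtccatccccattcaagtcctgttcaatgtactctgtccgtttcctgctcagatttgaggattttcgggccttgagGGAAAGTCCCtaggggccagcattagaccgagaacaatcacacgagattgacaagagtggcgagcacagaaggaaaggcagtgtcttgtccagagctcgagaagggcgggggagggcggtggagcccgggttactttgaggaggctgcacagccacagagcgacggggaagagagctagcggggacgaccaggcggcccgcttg
Cxcl12 (chr6:117168285-117168584, plus strand): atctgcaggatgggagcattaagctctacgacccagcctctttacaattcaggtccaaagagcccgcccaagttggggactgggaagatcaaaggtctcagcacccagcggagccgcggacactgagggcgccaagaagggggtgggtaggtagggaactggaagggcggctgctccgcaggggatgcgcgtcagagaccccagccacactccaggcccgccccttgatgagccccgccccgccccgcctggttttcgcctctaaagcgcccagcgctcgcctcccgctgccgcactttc
The Cxcl1 window held GGGAATTTCC from 71 bases before the start, a sequence that matches on both strands with an offset of 1 base, and GGAAACACCC from 89 bases before it. In Cxcl2 the same GGGAATTTCC stood 97 bases before the start, with GGGCTTTTCC at 78 bases. Csf1 held 1 match, GGAAAGTCCC, 154 bases before the start. The windows of Cxcl12 and Lcn2 held 0 matches. Of 32851 RefSeq promoter windows of this length, 5.56% held the motif. The AP-1 motif TGANTCA, present in 7.81% of them, was in 0 of the 5 windows. The Sp1 motif GGGCGG, present on either strand in 35.7% of them, was found 5 times in Cxcl12, 2 times in Csf1, 1 time each in Cxcl2 and Lcn2, and 0 times in Cxcl1. These matches describe letters only and say nothing about binding.

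Of these 10 genes, 6 passed the filter on low values (at least 1 FPKM in 3 or more libraries; FPKM is the fragment count scaled to transcript length and library depth). Cxcl1, Cxcl5, Ccl2, Ccl7 and Csf1 fell and Cxcl12 rose (limma, Benjamini-Hochberg adjusted p under 0.05 over the 10274 genes tested). In the same fit 18.4% of all genes tested fell and 25.4% rose, 43.8% together, so passing this threshold was common in the table. By the authors' deposited adjusted p under 0.05, 13.5% of 15844 genes fell and 12.4% rose, so the balance of falls and rises differed from that of limma. The falls of these 5 genes were larger than most: 1.06% of the tested genes fell by at least as much as Csf1, which had the smallest fall of the 5. A log2 change of -1 or less, which Cxcl1, Cxcl5, Ccl2 and Ccl7 had, together with a call was found in 0.730% of the tested genes. The cut-off at Csf1 was taken from these genes themselves, which were chosen with results known, so both shares are descriptive only. Falls of low genes are understated on the log2(FPKM + 1) scale used, so both shares may miss some. Values of the exosome and PBS libraries did not overlap for any of the 6 genes. Exosome libraries lay wholly below the PBS libraries in 23.5% of all tested genes and wholly above them in 32.0%.

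**Figure D1:**
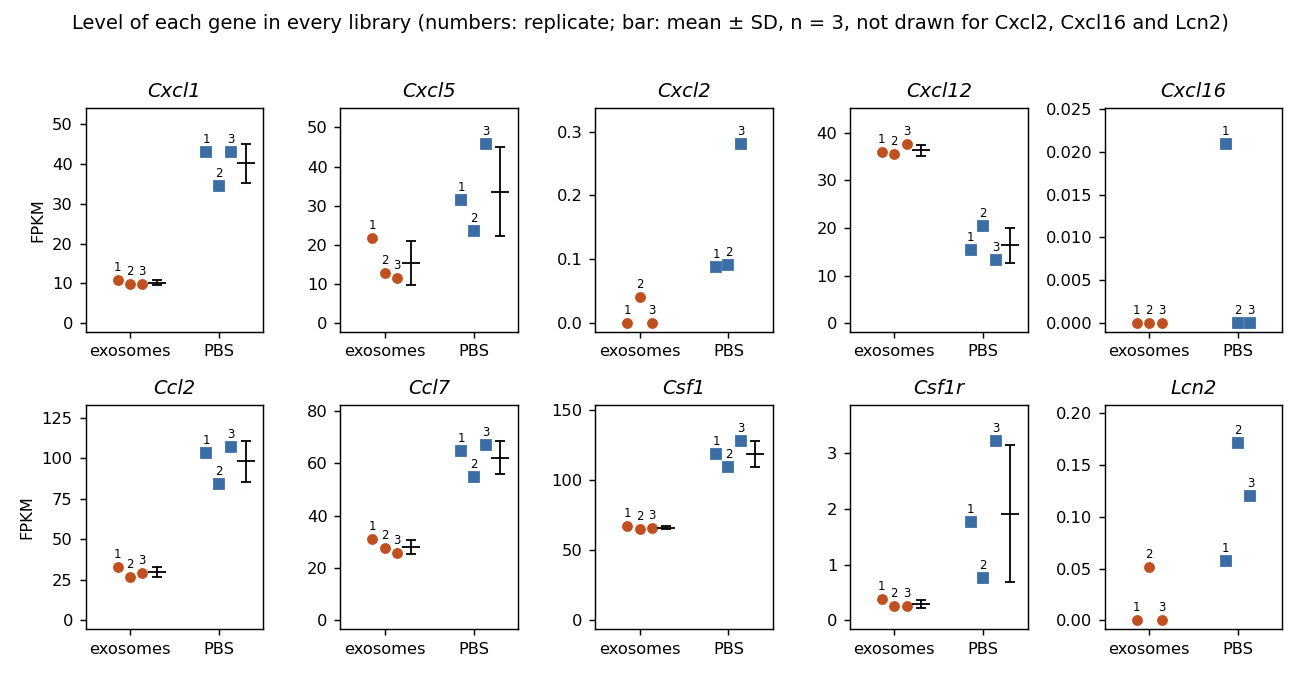
Level of each of the 10 genes in FPKM (vertical axis, a separate linear scale per gene) in the 3 exosome libraries (circles) and the 3 PBS libraries (squares), numbered by replicate, with mean ± SD as bars except for Cxcl2, Cxcl16 and Lcn2. The exosome values lie below the PBS values for Cxcl1, Cxcl5, Ccl2, Ccl7, Csf1 and Csf1r and above them for Cxcl12, while Cxcl2, Cxcl16 and Lcn2 do not exceed 0.281 FPKM in any library.

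Among the neutrophil-attracting ligands Cxcl1 and Cxcl5 passed the filter, and Cxcl1 had the larger change of the pair. Cxcl1 (Entrez gene 14825) had 10.8, 9.86 and 9.92 FPKM in exosome replicates 1 to 3, against 43.0, 34.6 and 43.1 FPKM in PBS replicates 1 to 3. The exosome libraries lay close together, and even the lowest PBS library stood far above them. This gave means of 10.2 ± 0.545 FPKM with exosomes and 40.2 ± 4.86 FPKM with PBS (SD, n = 3 each), a log2 change of -1.87 ± 0.08 (SE, exosomes over PBS on the log2(FPKM + 1) scale; limma adjusted p = 8.16e-07). The authors' deposited table gives mean normalized counts of 182 with exosomes and 695 with PBS for Cxcl1 and a 3.83-fold lower mean with exosomes (adjusted p = 7.64e-20).

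Cxcl5 (Entrez gene 20311), which encodes the mouse ligand also known as LIX, had 21.7, 12.7 and 11.6 FPKM in exosome replicates 1 to 3, against 31.5, 23.5 and 45.8 FPKM in PBS replicates 1 to 3. The highest exosome library lay just below the lowest PBS library, and both groups were widely spread. Its log2 change was -1.08 ± 0.33 (limma adjusted p = 0.0466), and the authors' deposited table gives an adjusted p of 0.0279 for Cxcl5. The call depended on which libraries entered. It held without exosome replicate 1 (adjusted p = 0.0155, log2 change -1.34) or PBS replicate 2 (0.0332, -1.30). It ended without exosome replicate 2 (adjusted p = 0.110), exosome replicate 3 (0.123), PBS replicate 1 (0.108) or PBS replicate 3 (0.127), and also with upper quartile scaling (0.0609), median centring (0.0572) and the replicate number as a block (0.0995).

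Cxcl2 (Entrez gene 20310), the gene next to Cxcl1 on the chromosome, was barely detected. It was listed at 0, 0.0404 and 0 FPKM with exosomes and at 0.0880, 0.0906 and 0.281 FPKM with PBS. The whole reads behind the authors' group means could be worked out for genes of low count, and they were 0, 1 and 0 reads of Cxcl2 in exosome replicates 1 to 3, against 4, 2 and 6 reads in PBS replicates 1 to 3. Summed over libraries and scaled by size factor, the PBS reads were 13.1 times the exosome reads, with a 95% interval from 1.93 to 558 that covers counting error only (exact, Clopper-Pearson). Cxcl2 did not pass the filter and was not tested, and the adjusted p of the authors' deposited table is 0.114. On the other side of Cxcl1 in GRCm38.p6 lie Cxcl15 and Cxcl3, looked up for their position. Cxcl15 did not exceed 0.0657 FPKM, and Cxcl3 was listed at 0 in all libraries except PBS replicate 1, at 0.0559 FPKM. Cxcl1 was thus far above the chemokine genes on either side of it in both groups.

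Both monocyte-attracting ligand genes were high in PBS cells and fell with exosomes. Ccl2 (Entrez gene 20296) had 32.7, 26.9 and 29.4 FPKM with exosomes, against 103, 83.7 and 107 FPKM with PBS. Its level was lower in every exosome library than in any PBS library by a wide margin. The log2 change of Ccl2 was -1.69 ± 0.10 (limma adjusted p = 7.90e-06), with means of 29.7 ± 2.94 FPKM with exosomes and 98.0 ± 12.5 FPKM with PBS (SD, n = 3 each). Ccl7 (Entrez gene 20306), the gene beside it, had 31.0, 27.5 and 25.9 FPKM with exosomes, against 64.5, 54.8 and 66.9 FPKM with PBS. The groups were again far apart, with a log2 change of -1.11 ± 0.08 (adjusted p = 1.95e-05). The authors' deposited table puts the fall at 3.45-fold for Ccl2 and at 2.26-fold for Ccl7.

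The paralogous neighbours did not keep their ratio. Within a library, Ccl2 stood at 1.06, 0.977 and 1.14 times the FPKM of Ccl7 in exosome replicates 1 to 3, against 1.60, 1.53 and 1.60 times in PBS replicates 1 to 3. Ccl2 was thus about level with Ccl7 in exosome cells and clearly above it in PBS cells. A similar comparison of Cxcl5 with Cxcl1 gave ratios of 2.00, 1.29 and 1.17 with exosomes and 0.732, 0.677 and 1.06 with PBS. Genes next along this cluster in GRCm38.p6, looked up for their position, were much lower: Ccl11, an eosinophil attractant, reached 0.603 FPKM at most and Ccl12 was listed at 0 in all 6 libraries. Ccl8, another CC ligand gene of the cluster, had 7.07, 5.08 and 3.55 FPKM with exosomes and 5.19, 4.42 and 5.72 FPKM with PBS, and the groups overlapped. The CC ligands share sequence, and the treatment of reads that fit several genes is not stated in the labels.

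Cxcl12 (Entrez gene 20315), which encodes stromal cell-derived factor 1, rose with exosomes. It had 36.0, 35.4 and 37.6 FPKM in exosome replicates 1 to 3, against 15.3, 20.5 and 13.3 FPKM in PBS replicates 1 to 3. The exosome libraries agreed closely, and PBS replicate 2 was the highest of its group. The log2 change was 1.13 ± 0.13 (limma adjusted p = 0.000379), with means of 36.3 ± 1.15 FPKM with exosomes and 16.4 ± 3.72 FPKM with PBS (SD, n = 3 each). The authors' deposited table gives mean normalized counts of 5551 and 2564 for Cxcl12 with exosomes and with PBS, a 2.16-fold rise. Cxcl16 (Entrez gene 66102), a membrane-anchored ligand of CXCR6, was in effect not seen: 0 reads in each exosome library, and 1, 0 and 0 reads in PBS replicates 1 to 3. A count of 0 allows up to 3 reads per library, so no difference in Cxcl16 was detectable at this depth. Cxcl16 overlaps Zmynd15, which did not exceed 0.0676 FPKM.

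As a result of these opposite changes the makeup of the chemokine transcripts differed. The summed level of the 7 ligand genes was 132, 112 and 115 FPKM in exosome replicates 1 to 3, against 258, 217 and 276 FPKM in PBS replicates 1 to 3. Cxcl12 made up 27.2%, 31.5% and 32.9% of that sum with exosomes and 5.94%, 9.43% and 4.80% with PBS. The share of Ccl2 was 23.9% to 25.7% with exosomes and 38.5% to 40.0% with PBS, and that of Cxcl1 was 8.19% to 8.77% and 15.6% to 16.7%. Ccl7 held nearly the same share in both, 22.6% to 24.5% with exosomes and 24.2% to 25.2% with PBS. Together the neutrophil-attracting Cxcl1, Cxcl2 and Cxcl5 summed to 32.5, 22.6 and 21.6 FPKM with exosomes and 74.6, 58.2 and 89.1 FPKM with PBS. The monocyte-attracting Ccl2 and Ccl7 summed to 63.7, 54.4 and 55.3 FPKM with exosomes and 168, 139 and 174 FPKM with PBS. No test was made of these sums, since the genes were chosen with results known.

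**Figure D2:**
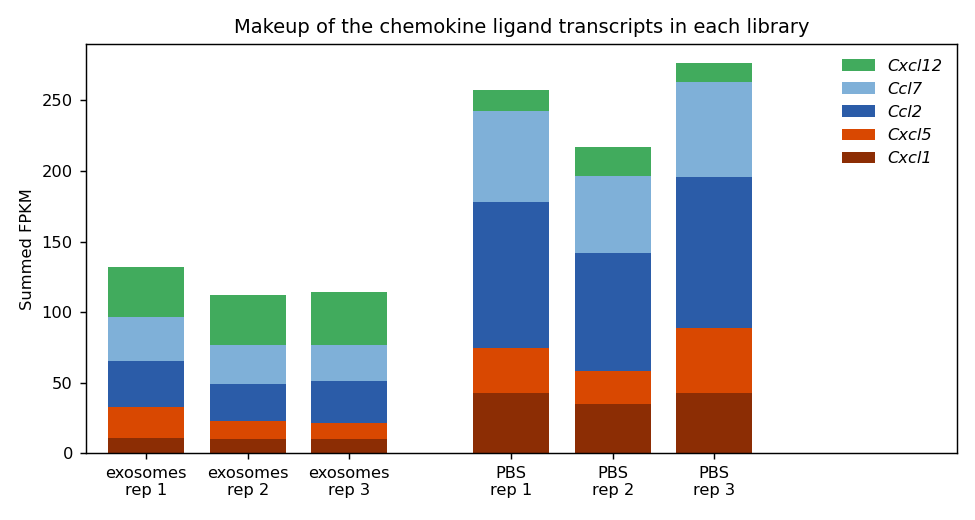
Summed FPKM (vertical axis) of 5 chemokine ligand genes stacked for each exosome and PBS library, coloured by gene; Cxcl2 and Cxcl16 are too low to be seen and are not drawn. The stacks are shorter in the exosome libraries, where Cxcl12 takes 27.2% to 32.9% of the sum of the 7 ligand genes, against 4.80% to 9.43% in the PBS libraries.

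Ranked by FPKM, which is per transcript length, Csf1 was the highest of the 10 genes in both groups. With exosomes the order after it was Cxcl12, Ccl2, Ccl7, Cxcl5 and Cxcl1, and the ranges over libraries overlapped only between Ccl2 and Ccl7 among these. With PBS the order after it was Ccl2, Ccl7, Cxcl1, Cxcl5 and Cxcl12, with overlapping ranges only between Cxcl1 and Cxcl5 among these. Cxcl12 was therefore second of the 10 in exosome cells and sixth in PBS cells. Csf1r, Cxcl2, Lcn2 and Cxcl16 filled the 4 lowest places in both groups.

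Csf1 (Entrez gene 12977), the growth factor that macrophages need, fell with exosomes while remaining abundant. It had 67.0, 65.1 and 65.5 FPKM with exosomes, against 118, 109 and 127 FPKM with PBS. The exosome values differed little from each other and all lay well below the PBS values. The log2 change of Csf1 was -0.83 ± 0.06 (limma adjusted p = 7.24e-06), with means of 65.9 ± 0.998 FPKM with exosomes and 118 ± 9.25 FPKM with PBS (SD, n = 3 each). The deposited normalized counts of the authors average 8376 with exosomes and 15932 with PBS for Csf1, the deepest coverage of the 10 genes. The other ligand of the CSF1 receptor, Il34, had 1.39, 0.718 and 0.871 FPKM with exosomes and 1.16, 1.07 and 0.492 FPKM with PBS. Those values overlapped, and the log2 change was 0.07 with a 95% confidence interval of -0.31 to 0.44 (limma adjusted p = 0.755).

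Csf1r (Entrez gene 12978) encodes the CSF1 receptor and is normally a gene of macrophages and their precursors. It had 0.381, 0.254 and 0.249 FPKM with exosomes, against 1.77, 0.759 and 3.22 FPKM with PBS. The reads recovered for Csf1r were 38, 30 and 28 in exosome replicates 1 to 3 and 199, 79 and 345 in PBS replicates 1 to 3. All PBS libraries were above all exosome libraries, but the PBS libraries differed widely among themselves. With 2 libraries at 1 FPKM or more, Csf1r did not pass the filter. Without any filter its log2 change was -1.08 ± 0.29 (limma adjusted p = 0.0351), and the adjusted p was 0.0889 to 0.107 when any exosome library or PBS replicate 1 was left out, 0.00621 without PBS replicate 2 and 0.0443 without PBS replicate 3. These fits were chosen after seeing the data. The authors' deposited table has a 7.08-fold lower mean with exosomes for Csf1r (adjusted p = 0.0390). The log2 changes above, on log2(FPKM + 1), understate a fall at so low a level. In this fibroblast line fewer cells with Csf1r transcripts and fewer transcripts per cell cannot be told apart, which holds for every gene here.

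Other leukocyte markers were low. Cd14 had the same order over the 6 libraries as Csf1r, but so did Cxcl5 and Ccl7, so this order was not particular to leukocyte markers. Of 15 such markers 4 were listed at 0 FPKM in all 6 libraries (Tyrobp, Spi1, S100a9 and Cd3e), among them Spi1, the factor that specifies macrophages. Reads worked out as 0 in both groups for Tyrobp and S100a9, with PBS for Spi1 and with exosomes for Cd3e. None were worked out for Spi1 with exosomes or Cd3e with PBS, where an authors' mean count of 0 would have given 0 reads. Those means were thus not listed at 0, so 0 FPKM does not show that the genes were absent there. Ptprc, the pan-leukocyte gene for CD45, had 4, 9 and 8 reads in exosome replicates 1 to 3 and 6, 18 and 5 reads in PBS replicates 1 to 3. The summed level of the 15 markers was 5.14 to 5.37 FPKM with exosomes and 6.33 to 8.91 FPKM with PBS, most of it from Cd14 and Cd68. Cd14, an endotoxin co-receptor that fibroblasts can also express, had 3.43, 2.39 and 1.99 FPKM with exosomes and 4.15, 3.68 and 7.10 FPKM with PBS (log2 change -0.71 ± 0.23, limma adjusted p = 0.0388). As for Csf1r, Cxcl5 and Ccl7, PBS replicate 3 was highest and exosome replicate 3 lowest. That call was lost under 6 of 12 alternatives, among them leaving out exosome replicate 2, exosome replicate 3 or PBS replicate 1, with adjusted p-values of 0.0542 to 0.127. Cd68, a lysosomal gene of macrophages, was the other marker tested and did not pass (log2 change -0.03 ± 0.15). Pdgfrb, the neighbour of Csf1r in GRCm38.p6 and a fibroblast gene, had 42.6, 40.5 and 38.0 FPKM with exosomes and 44.7, 45.1 and 51.4 FPKM with PBS. Whether reads from that neighbour enter the Csf1r values was not tested. Csf1r also overlaps Mir6983 and Gm52352, and Csf1 overlaps Gm40121, in that annotation.

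Lcn2 (Entrez gene 16819) was near the limit of detection. It had 0, 0.0519 and 0 FPKM with exosomes, against 0.0570, 0.171 and 0.120 FPKM with PBS. In reads these were 0, 1 and 0 with exosomes and 2, 6 and 2 with PBS, so the PBS reads, scaled by size factor, were 10.9 times the exosome reads with a 95% interval from 1.55 to 472 for counting error only. It was not tested, and the authors' deposited adjusted p is 0.200. Of 6 genes for partners of lipocalin 2 and for iron stores, 4 were tested. Of those, 3 fell and 1 rose, beside 18.4% and 25.4% of all genes tested. Their median log2 change was -0.48, against 0.04 over all genes tested. Tfrc, which imports transferrin-bound iron, had the largest fall at -1.29 ± 0.06 (limma adjusted p = 1.18e-06). Ferritin heavy and light chain genes Fth1 and Ftl1 changed by -0.53 and -0.42, and Bdh2, an enzyme linked to a mammalian siderophore, by 0.37. The 2 that did not pass the filter, Slc22a17 and Lrp2, encode receptors for lipocalin 2 and did not exceed 1.10 FPKM in any library. Ferritin genes have processed pseudogenes, which makes their levels uncertain.

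**Figure D3:**
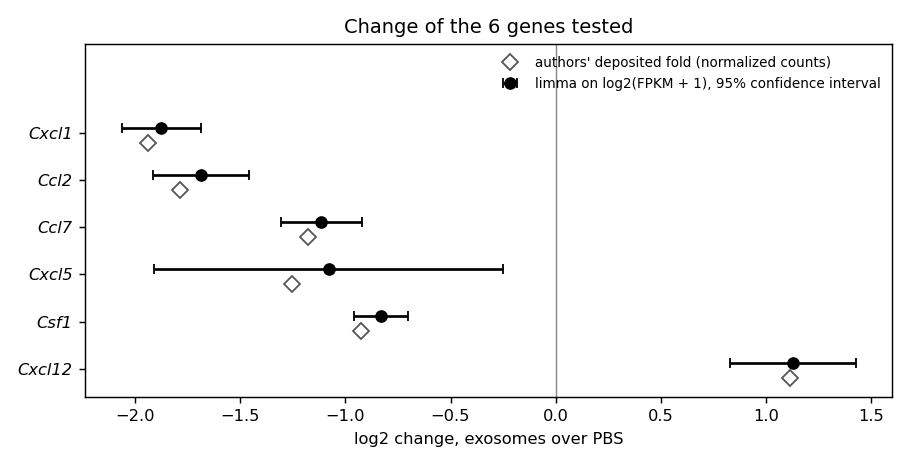
Log2 change of exosomes over PBS (horizontal axis) for the 6 genes that passed the filter, from limma on log2(FPKM + 1) with 95% confidence intervals (filled circles) and as the fold in the authors' deposited table of normalized counts (open diamonds). The 5 lowered genes range from -0.83 for Csf1 to -1.87 for Cxcl1, Cxcl12 stands alone at 1.13, and the interval of Cxcl5 is the widest.

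The libraries nearest to the other group were mostly the same ones from gene to gene. PBS replicate 2 was the PBS library closest to the exosome mean for 6 of the 6 tested genes, as it was for 55.1% of the 4501 genes called in either direction. Exosome replicate 1 was the exosome library closest to the PBS mean for 5 of the 6, against 31.3% of the called genes. The 6 genes come from the same 6 libraries and do not count as separate observations of this. For every one of the 6 except Cxcl5, each change kept its sign and its call without any 1 of the 6 libraries.

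The genes whose levels followed these most closely over the 6 libraries were found by Pearson correlation of log2(FPKM + 1). Both groups form separate clusters, so these values mainly reflect the difference between groups and carry no p-value. Cxcl1 was closest to Ptges, the prostaglandin E synthase gene (r = 0.999), Phlda1 and Akap2. Cxcl5 was closest to Abcf2 (r = 0.997), Grem1, an antagonist of bone morphogenetic proteins, and Znhit6. For Cxcl12 they were the RNA-binding protein gene Mex3a (r = 0.999), Iglon5 and Zfp956. Nearest to Ccl2 were the syndecan gene Sdc4 (r = 0.999), Rgs16 and Snai1, and to Ccl7 the pyruvate kinase gene Pkm (r = 0.999), Prl2c2 and Hspa8. Csf1 was closest to the vasodilator peptide gene Adm (r = 0.999), Ereg and Ier3.

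Other chemokine ligand genes moved in both directions. Of the 29 further ligands found, 10 were at 0 throughout and 6 were tested. Of those, 1 was lowered and 3 were raised, beside 18.4% and 25.4% of all genes tested. Their median log2 change was 0.18, against 0.04 over all genes tested. Cx3cl1, the membrane-anchored fractalkine, fell to 9.21, 10.7 and 10.5 FPKM with exosomes, against 19.8, 19.1 and 19.0 FPKM with PBS (log2 change -0.87 ± 0.06, limma adjusted p = 7.27e-06). Ccl5 and Cxcl10, both known as interferon-induced attractants of T cells, rose by 0.74 ± 0.14 (adjusted p = 0.00361) and 0.45 ± 0.09 (adjusted p = 0.00362) on the log2 scale. Ccl5 had 4.32, 4.06 and 4.71 FPKM with exosomes and 3.04, 1.60 and 2.12 FPKM with PBS. Cxcl10 had 1.17, 1.30 and 1.58 FPKM with exosomes and 0.714, 0.862 and 0.583 FPKM with PBS. It passed the filter only through the exosome libraries, so its place among the 3 raised depended on the group where it was high. Ccl9 rose as well, by 0.37 ± 0.10 (adjusted p = 0.0120). The 7 ligand genes described above made up 80.3% to 82.1% of the FPKM of all listed chemokine ligands with exosomes and 87.1% to 89.2% with PBS.

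The fibroblasts transcribed almost none of the receptors for these ligands. Of 23 chemokine receptor genes 12 were listed at 0 in all libraries, Cxcr1, Cxcr6, Ccr2 and Ccr3 among them. Cxcr2 and Cxcr4 were each above 0 in 1 library, at 0.0245 and 0.0276 FPKM, and Ccr1 did not exceed 0.0143 FPKM. Ackr3, an atypical receptor that takes up CXCL12, was the 1 receptor gene that passed the filter. It rose to 25.1, 24.5 and 26.0 FPKM with exosomes, against 20.5, 20.6 and 19.0 FPKM with PBS (log2 change 0.32 ± 0.05, limma adjusted p = 0.000916). Among 10 other colony-stimulating factor and receptor genes 4 were listed at 0 in all libraries, 3 were tested and 1 fell, the stem cell factor gene Kitl (-0.49 ± 0.05, adjusted p = 8.69e-05). The median log2 change of the 3 tested was 0.07, against 0.04 over all genes tested. Over all genes tested 18.4% fell and 25.4% rose, the shares to set beside this list and the chemokine receptors. Csf3, which encodes the neutrophil growth factor G-CSF and was picked out after its values were seen, was listed at 0 in the 3 exosome libraries and had 0.368, 0.296 and 0.484 FPKM with PBS.

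Among genes for receptors of the signals that induce these chemokines, those called were all lower with exosomes. Of 15 tested, 7 fell, 0 rose and 8 did not pass, with a median log2 change of -0.17. Tlr4, the endotoxin receptor, averaged 8.04 ± 0.456 FPKM with exosomes and 15.0 ± 0.866 FPKM with PBS (log2 change -0.82 ± 0.06, limma adjusted p = 1.00e-05). Il1rap and Il1r1, the subunits of the interleukin-1 receptor, changed by -0.84 ± 0.06 and -0.44 ± 0.05, and the tumour necrosis factor receptor genes Tnfrsf1b and Tnfrsf1a by -0.48 ± 0.06 and -0.26 ± 0.04. Of 16 regulators of chemokine and Lcn2 transcripts 11 fell, 2 rose and 3 did not pass, with a median of -0.28. Over all genes tested 18.4% fell and 25.4% rose, the shares to set beside both lists. Tnfaip3, among the 11, passed the filter only through the PBS libraries (1.35, 1.46 and 1.37 FPKM). With exosomes it had 0.602, 0.704 and 0.789 FPKM, and it was picked out after its values were seen. Zfp36, which encodes tristetraprolin and speeds the decay of AU-rich messages, averaged 12.4 ± 0.570 FPKM with exosomes and 31.2 ± 3.75 FPKM with PBS (-1.26 ± 0.08, adjusted p = 5.09e-06). The related Zfp36l2 changed by -0.60 ± 0.05, Nfkbia, the NF-kB inhibitor gene that NF-kB itself induces, by -0.73 ± 0.06, Cebpb by -0.53 ± 0.06 and the ribonuclease gene Zc3h12a by -0.54 ± 0.07. In the list are genes that raise chemokine transcripts and genes that lower them, so its count has no single sense.

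Transcripts for proteins that cleave or hold chemokines and CSF1 moved both ways. Of 14 tested, 2 fell, 5 rose and 7 did not pass (median log2 change 0.07). Over all genes tested 18.4% fell and 25.4% rose, so calls both ways were common. Sdc4, a heparan sulfate proteoglycan, averaged 64.1 ± 2.59 FPKM with exosomes and 111 ± 4.92 FPKM with PBS (-0.79 ± 0.05, limma adjusted p = 4.46e-06), and Rhbdf1, a partner of the sheddase ADAM17, changed by -0.34 ± 0.05. Mmp2, the gelatinase that can cleave CXCL12 and CCL7, averaged 388 ± 24.1 FPKM with exosomes and 225 ± 4.78 FPKM with PBS (0.78 ± 0.05, adjusted p = 7.57e-06). Sdc1 and Vcan rose by 0.25 and 0.19.

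**Figure D4:**
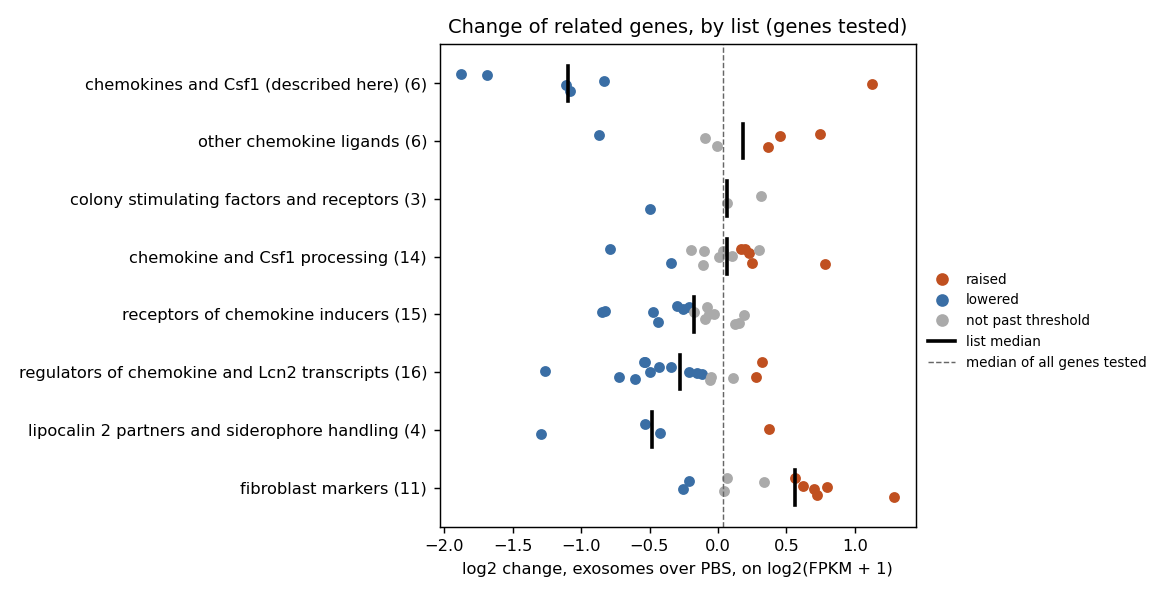
Log2 change of exosomes over PBS (horizontal axis) for each tested gene of 8 lists, with the number tested in brackets, coloured by call (adjusted p under 0.05), with the list median as a bar and the median of all genes tested, 0.04, as a dashed line. The chemokines and Csf1 have a median of -1.10, and the fibroblast markers one of 0.57.

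Of 12 fibroblast markers 11 were tested, and Fap, the gene for fibroblast activation protein, did not exceed 0.109 FPKM. The 12 summed to 7023 to 7376 FPKM with exosomes and 5668 to 5991 FPKM with PBS. Of those tested 6 rose, 2 fell and 3 did not pass, beside 25.4% rising and 18.4% falling over all genes tested. The median log2 change of the markers was 0.57. The 5 with the smallest adjusted p were the collagen genes Col1a1 (0.80 ± 0.05, limma adjusted p = 5.85e-06) and Col1a2 (0.57 ± 0.06), Pdgfra (0.70 ± 0.05) and the proteoglycan genes Lum (1.29 ± 0.12) and Dcn (0.62 ± 0.09). The 2 that fell were S100a4 (-0.26 ± 0.08, adjusted p = 0.0297) and Pdgfrb (-0.22 ± 0.06, adjusted p = 0.0223), named with Fap after their values were seen. The 14 markers of endothelial, epithelial, red cell and platelet lineages in the table summed to 3.28 to 4.29 FPKM with exosomes and 2.54 to 3.81 FPKM with PBS, with Krt5, Alas2 and Gp9 listed at 0 throughout. Itga2b, the platelet integrin gene, was the 1 of them tested and changed by 0.40 ± 0.10 (adjusted p = 0.00862). The part that any shift in marker levels had in the chemokine results was not tested. Depth was even, at an estimated 19200000 to 22000000 counted reads in exosome libraries and 18800000 to 20100000 in PBS libraries, and 0 pairs of libraries held identical values.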

How the data were processed

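RNA was taken from cell lysates with a mirVana kit, and TruSeq Stranded mRNA libraries were sequenced as paired ends on a HiSeq instrument, per the labels' protocols. Trimmomatic, HISAT2, Bowtie2, Cufflinks, StringTie, HTSeq, SAMtools, DESeq and build mm9 are named in the submitters' processing notes, without order or versions; how strand was used in counting is not stated there. For each library the authors deposited expression values read here as FPKM, inferred from Cufflinks in those notes and from unequal column sums, since the headers say only expression. The authors also deposited, per the file headers, group means of normalized counts (a signal scaled by size factor), a fold (ratio) of exosomes over PBS, p-values and adjusted p-values. Each column carries a sample number that the labels repeat. In 27 rows a gene name had become a date and was restored through its Entrez identifier.

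The test was run on log2(FPKM + 1), pseudocount 1, for genes reaching 1 FPKM in no fewer than 3 libraries, with limma 3.58.1 in R 4.3.3 (trend and robust variance, group as the only term, two-sided, Benjamini-Hochberg over all genes tested), and the code was tested on simulated data. A fold on this scale understates the change of low genes. Counts per library were not used as input. For genes of low count, whole reads were solved from the authors' group means: the size factor steps came from genes seen in 1 library, and in 100% of 2441 genes for exosomes and 2362 for PBS with a mean under 3 the mean was a sum of whole multiples of these steps (tolerance 2e-05). Among low genes listed above 0 FPKM in 1 library of a group, 77.3% to 80.9% had a mean that was a whole multiple of that library's step. The rest held reads in libraries listed at 0 FPKM, so a listed 0 is not always 0 reads. Reads are given only where 1 solution lay within 25% of, or 2 reads from, the split that FPKM gives. Depth per library was estimated from the size factors and the authors' totals.

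The genes and the 10 related lists were chosen with earlier results of these data known, so lists are given as counts and medians with no test of their own. Named from each list were up to 5 called genes of smallest adjusted p, with the receptors of the ligands and Il34; neighbours in the gene clusters were added for their position. Alternatives were another pseudocount, other filters and scalings, a plain variance model, the replicate number as a block and each library left out.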

Additional observations from a re-analysis of the deposited data

How the results depend on the processing

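Across 13 alternatives the 10 genes gave 4 to 6 falls and 1 rise. Over all genes tested the rises ranged from 1813 to 3105, against 2612, and the falls from 1403 to 2048, against 1889. In the related lists 15 to 22 genes rose and 22 to 28 fell. The log2 changes of Cxcl1 (-1.98 to -1.82), Ccl2 (-1.79 to -1.62), Ccl7 (-1.20 to -1.06), Csf1 (-0.89 to -0.78) and Cxcl12 (1.00 to 1.29) kept their direction and call in all of them. The log2 change of Cxcl5 ranged from -1.34 to -0.84, with adjusted p-values from 0.0113 to 0.127. Of the single genes followed, Cxcl5, Cd14 and Csf1r lost a call under some alternative. Il34, which was not called, had a log2 change of -0.07 without exosome replicate 1 and -0.10 without PBS replicate 3, below 0 in both; the range over the other libraries left out reached 0.17. Leaving out 1 library at a time gave log2 folds of the summed levels of -1.74 to -1.38 for Cxcl1, Cxcl2 and Cxcl5 and -1.56 to -1.41 for Ccl2 and Ccl7. Same-numbered libraries did not deviate together (correlations of deviations -0.12, -0.02 and -0.29 for numbers 1 to 3), and no library correlated best with the one of its own number, so the numbers are not read as pairs. With the replicate number as a block 2288 genes rose and 1626 fell, and of the 6 genes tested only the call of Cxcl5 ended. At this depth Cxcl2, Lcn2 and Cxcl16 rest on 1 to 13 reads in all, too few to size a difference.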
